A study of Mus musculus with 16 samples.

Results

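Translation factors were described through 70 of the 50316 genes listed for each library, namely every gene whose symbol names a eukaryotic initiation factor (Eif1 to Eif6), the elongation factor eEF1 (Eef1) or a cytoplasmic poly(A)-binding protein (Pabpc and a digit). The choice rested on the symbol alone, and 9 symbols ending in -ps, which mark pseudogenes, were left out. Levels were given as CPM, the reads of a gene scaled to the total of its library, and 63 of the 70 genes were tested because each replicate of some group reached 0.5 CPM. The other 7, Pabpc2, Pabpc5, Pabpc6, Eif2s3y, Eif4ebp3, Eif4e1b and Eif2c5, did not pass that limit, and Eif2c5 is annotated as a noncoding RNA.

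RNA came from cochleae of RiboTag mice at P4, in which tamoxifen-activated Cre under the GLAST promoter (GLAST CreERT/+) adds an HA tag to the ribosomal protein Rpl22 (Rpl22 HA/+), so that anti-HA beads pull down ribosomes of GLAST-Cre+ cells with their bound mRNA. Control mice carried these alleles only and are labelled as untreated, although the study's methods describe diphtheria toxin and tamoxifen for controls too. DTR mice carried in addition Lgr5 DTR/+, a knock-in that places the diphtheria toxin receptor and EGFP under the Lgr5 promoter, and are labelled as DTR treated, which kills Lgr5+ supporting cells. From each homogenate of pooled cochleae from several mice, 5% was kept as input (whole cochlea after removal of the ganglion, the lateral wall and Reissner's membrane) and 95% went into the immunoprecipitation (IP), which gave 4 input and 4 IP libraries for control and again for DTR. GLAST-Cre marks inner phalangeal cells and cells of the greater epithelial ridge (GER), and mice of both sexes were used, with the sex of each pool not given. The 16 libraries held between 28089836 and 41966310 counted reads. Unless a block is named, the p-values measure the spread between pools within a group. That fit takes the 16 libraries as independent, although input and IP of a pool share a homogenate.

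Translation of most mRNAs starts when eIF4F binds the 5′ cap, with eIF4E on the cap, eIF4A unwinding the RNA and eIF4G as the scaffold that also reaches the poly(A)-binding protein. The small ribosomal subunit, carrying eIF1, eIF1A, eIF3, eIF5 and the initiator tRNA on eIF2, scans to the start codon, after which eIF5B joins the large subunit and eEF1A delivers each later aminoacyl-tRNA. Kinases that phosphorylate eIF2 and the 4E-BP proteins that sequester eIF4E are the main brakes, and several of these factors are themselves made from mRNAs that begin with a 5′ terminal oligopyrimidine (TOP) motif, whose translation follows mTORC1.

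Start-site windows are shown for a selection of the members described below, because pyrimidine runs at the start site define TOP mRNAs. Of the known TOP genes, the selection holds only those whose window had a match on the transcribed strand. Each holds 30 bases of RefSeq sequence (build GRCm38.p6), 15 before the annotated start and 15 from it, read 5′ to 3′ on the gene's own strand, with capitals for every match to the motifs CTTTT or CTTTC, or else to CTTCC, or lastly to CTCTT, whose matches may overlap each other. Eif5b lies at chr1:37997995-37998024 (+), Pabpc4l at chr3:46447927-46447956 (-), Eif4ebp2 at chr10:61452655-61452684 (-), Eif1ad at chr19:5366798-5366827 (+), Eif4g1 at chr16:20672712-20672741 (+), Eef1a1 at chr9:78481710-78481739 (-), Eif3f at chr7:108934400-108934429 (+) and Eif4b at chr15:102073758-102073787 (+).
Eif5b: ggcgcctgggttcccacctggccggcggct
Pabpc4l: tccctgagcccagctgcagaggctggggag
Eif4ebp2: ggtatcgcagcgggacgaccgggcgagagc
Eif1ad: atccggCTTTCgatggCTTTTgtttctcca
Eif4g1: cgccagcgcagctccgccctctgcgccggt
Eef1a1: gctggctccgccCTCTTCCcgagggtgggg
Eif3f: tctgttctaggctctctCTCTTTCtcggca
Eif4b: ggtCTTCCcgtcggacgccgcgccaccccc
Among these windows, those of Eef1a1, Eif3f and Eif4b, on the list of known TOP mRNAs, and that of Eif1ad, which is not on it, hold a match, whereas Eif5b, Pabpc4l, Eif4ebp2 and Eif4g1 do not. Of the 5 known TOP genes with a window, 3 held a match on the transcribed strand. RefSeq windows were found for 51 of the 70 genes, of which 11 (21.6%) held a match on the transcribed strand and 19 (37.3%) on either strand, beside 17.7% and 33.3% of all 27025 genes with a window. The annotated start need not be the start used in the cochlea, and a match is a description of letters only.

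Transcripts of the 70 genes together took between 9573 and 10137 CPM in control input and between 7916 and 8726 CPM in control IP. In DTR libraries the sum lay between 9721 and 10972 CPM in input and between 8722 and 9318 CPM in IP. The summed level was thus lower in every control IP library than in any control input library, and lower in every DTR IP library than in any DTR input library. A handful of genes made up much of it, since Eif4g2, Eef1a1, Eif5a, Eif4h and Eif1 held 44.0% of the summed CPM of control input. Per kilobase of exon, the highest levels in control input belonged to Eef1a1, which carries aminoacyl-tRNA to the ribosome (443 ± 52 CPM per kb, SD, n = 4), Eif5a, which eases peptide bond formation at difficult stretches (249 ± 7.6), Eif1, a guardian of start codon choice (197 ± 14), and Eif4g2, an eIF4G relative without the eIF4E site (177 ± 18). Of these neighbours in the order, Eif1 and Eif4g2 overlapped within their spread.

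The paralogs that share a task differed in level. Per kilobase in control input, Eif4a1 (71.7 ± 5.4 CPM per kb) was above Eif4a2 (25.5 ± 3.3), its near-identical helicase partner, and Eif4e (35.0 ± 3.4) was above the alternative cap-binding proteins Eif4e2 (16.4 ± 1.1) and Eif4e3 (4.43 ± 0.37). Pabpc1, the major poly(A)-binding protein (26.3 ± 2.1 CPM per kb), was above Pabpc4 (4.30 ± 0.64), Pabpc4l (2.90 ± 0.35) and Pabpc1l (0.206 ± 0.068). The poly(A)-binding protein genes Pabpc2 and Pabpc6 were each at 0 in 14 of the 16 libraries, with no library above 3 reads, Pabpc5 had between 1 and 40 reads, and Eif4e1b, known from oocytes, reached at most 6 reads.

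Ribosome-bound RNA was first set against whole cochlea without damage, which addresses how the tagged cells' translating mRNA differs from that of the tissue. In control libraries 25 of the 63 tested factors differed at a limma adjusted p under 0.05 (39.7%, beside 39.9% of all 16994 tested genes), with 6 higher and 19 lower in IP, and the background was 19.3% higher and 20.7% lower. Their median log2 fold change (LFC) was -0.14, compared with -0.0012 over all tested genes. In DTR libraries 25 differed as well (39.7%, beside 39.2% of all genes), with 7 higher (background 18.6%) and 18 lower (background 20.5%) and a median LFC of -0.14, compared with -0.03. The changes shared their sign in 55 of the 63 factors, and 5 factors were called higher and 14 lower in both treatments. Agreement between treatments was not counted over all genes, so whether it is particular to translation factors was not tested. The shares over all genes given for each treatment also stand beside the counts by role below. A stricter call, which adds a fold change above 1.5 and no overlap between libraries, left 4 higher and 2 lower in each treatment. The background of that call was 24.1% of genes in control (11.8% higher and 12.3% lower) and 21.8% in DTR (11.5% higher and 10.3% lower). IP and input differ in cell types as well as in ribosome binding, so that fewer cells of a type, less RNA per cell and weaker ribosome binding cannot be told apart.

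**Figure D1:**
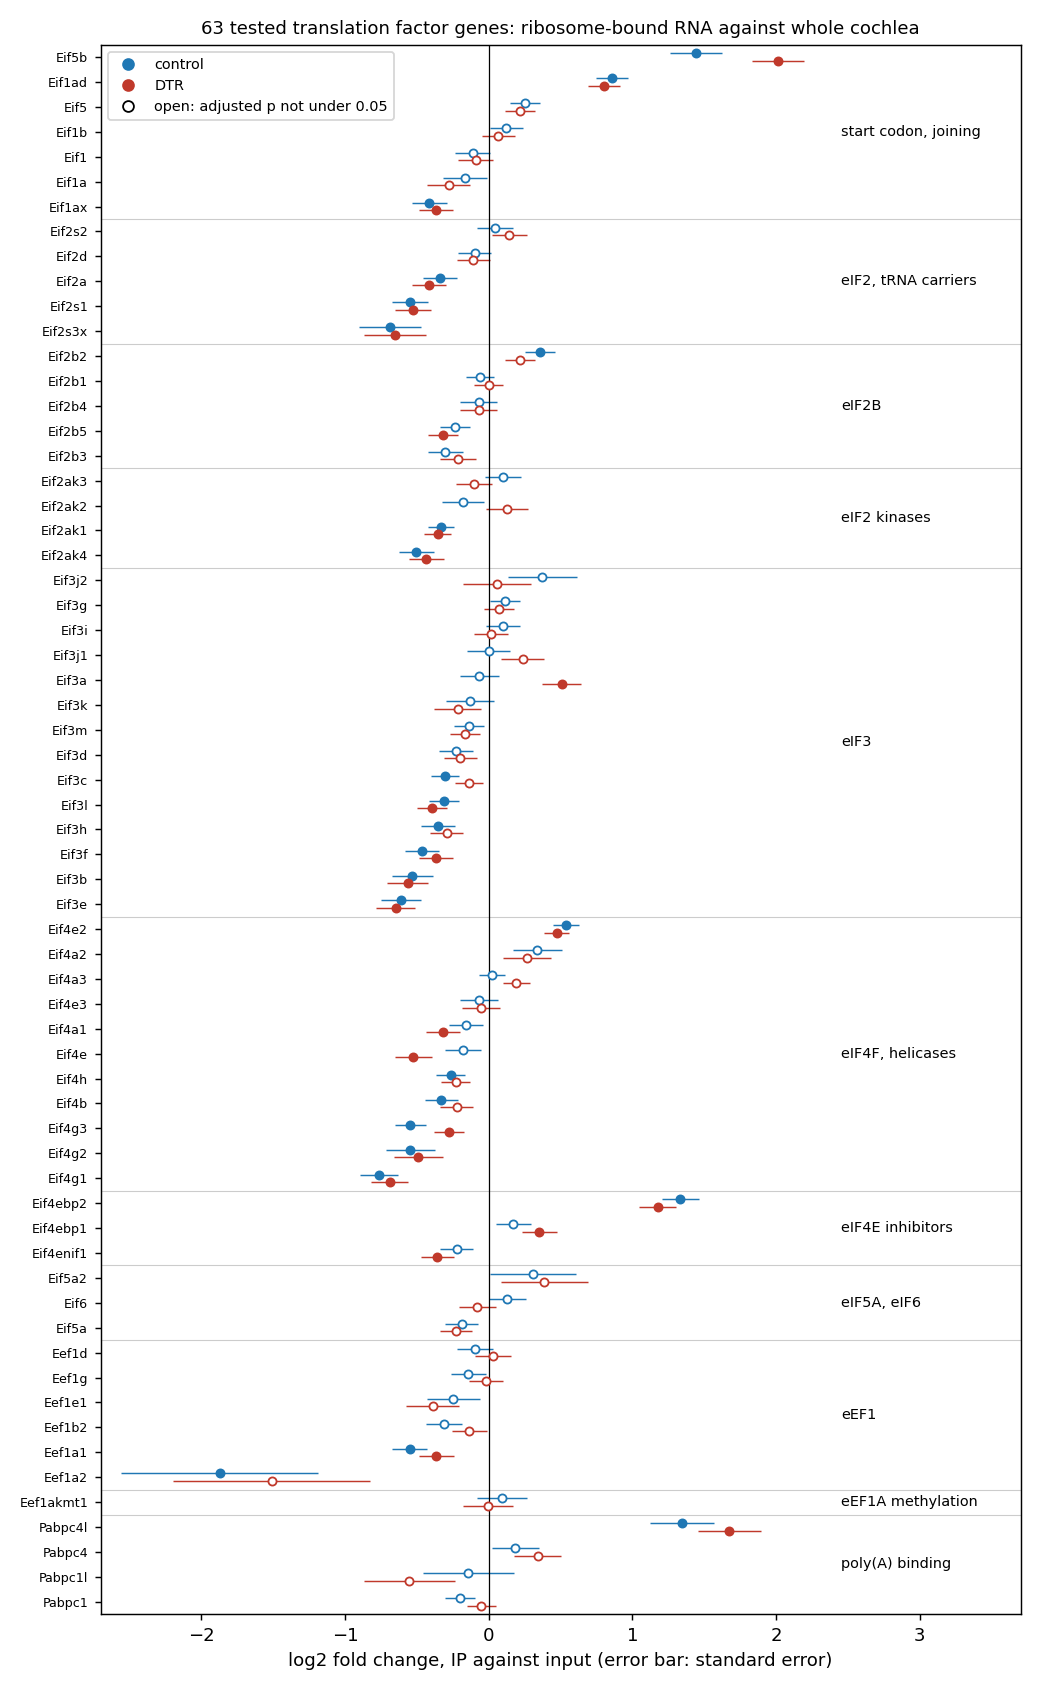
The 63 tested translation factors by role, with the LFC of IP against input on the horizontal axis for control (blue) and DTR (red) libraries, standard errors as bars and open circles where the limma adjusted p was not under 0.05. Eif5b, Pabpc4l and Eif4ebp2 stand at an LFC above 1 in both treatments, while most eIF3 and eIF4F genes lie at or below 0.

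Among the 7 factors of start codon selection and subunit joining, Eif5b and Eif1ad rose in IP and Eif1ax fell in both treatments, while Eif1, Eif1a, Eif1b and Eif5 did not pass the test. Eif5b, the GTPase that joins the ribosomal subunits, measured 40.1, 52.9, 60.5 and 42.6 CPM in the control input libraries and 137, 162, 129 and 111 CPM in control IP. In DTR it measured 60.5, 55.5, 63.9 and 49.7 CPM in input and 268, 154, 296 and 211 CPM in IP. Every IP library stood above every input library. The LFC was 1.44 ± 0.18 (SE) in control (limma adjusted p = 4.8e-06) and 2.01 ± 0.18 in DTR (limma adjusted p = 1.1e-07), or 2.72-fold and 4.03-fold. Eif5b spans chromosome 1 from 37998010 to 38055579 on the plus strand (GRCm38, GENCODE M21). It overlaps Rev1 on the other strand, and reads of the overlap cannot be assigned with a kit that does not mark strand.

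Eif1ad, a nuclear protein with an eIF1A-like domain, lay between 34.9 and 41.4 CPM in control input and between 56.9 and 83.1 CPM in control IP. In DTR it lay between 41.3 and 48.1 CPM in input and between 69.4 and 85.7 CPM in IP. Its groups did not overlap, with an LFC of 0.86 ± 0.11 (limma adjusted p = 7.7e-06) and 0.80 ± 0.11 (limma adjusted p = 1.9e-05). It overlaps Banf1 on the other strand. Eif1ax, the X-linked eIF1A, went the other way, from 133 ± 14 to 97.8 ± 11 CPM in control (LFC -0.41 ± 0.12, limma adjusted p = 0.0096). Its DTR call was lost without DTR input 1, DTR input 2, DTR input 3 or DTR IP 4 (limma adjusted p between 0.052 and 0.074). Eif1a and Eif1ax code for nearly the same protein, and the handling of reads that map to both was not stated. Eif1, the highest of the group per kilobase, was at 413 ± 30 CPM in control input and 363 ± 28 CPM in control IP (LFC -0.11 ± 0.12, limma adjusted p = 0.50).

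Of the 5 tested genes of eIF2 and other carriers of initiator tRNA, Eif2s1, Eif2s3x and Eif2a fell in IP in both treatments. Of all genes, 20.7% fell in control IP and 20.5% in DTR IP. Eif2s1, the alpha subunit and target of the stress kinases, was at 105, 80.1, 73.4 and 89.9 CPM in control input and 63.7, 54.9, 57.8 and 56.7 CPM in control IP (LFC -0.55 ± 0.13, limma adjusted p = 0.0017), and the 2 groups did not overlap. Eif2s2, the beta subunit, was at 120 ± 13 and 121 ± 1.6 CPM (LFC 0.04 ± 0.12, limma adjusted p = 0.81). Of the genes of this trimer, those of the alpha subunit and of the X-linked gamma subunit thus fell, while the beta subunit gene did not pass and the Y-linked gamma subunit gene was not tested. The control call of Eif2a, an alternative initiator tRNA carrier, was lost without control input 1, control input 2, control input 4 or control IP 3 (limma adjusted p between 0.052 and 0.078). It was also lost with edgeR (adjusted p = 0.086) and DESeq2 (adjusted p = 0.056). In eIF2B, the exchange factor that reloads eIF2 with GTP, Eif2b2 rose in control IP from 52.7 ± 3.4 to 68.1 ± 6.8 CPM (LFC 0.35 ± 0.11, limma adjusted p = 0.012). Eif2b5, the catalytic subunit, fell in DTR IP from 113 ± 6.9 to 90.4 ± 12 CPM (LFC -0.32 ± 0.11, limma adjusted p = 0.023), a call lost without DTR input 1 (limma adjusted p = 0.055) or DTR IP 3 (limma adjusted p = 0.087). The other 3 subunits, Eif2b1, Eif2b3 and Eif2b4, passed in neither.

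Of the 4 kinases of eIF2 alpha, Eif2ak4 and Eif2ak1 fell in IP in both treatments, beside 20.7% of all genes in control and 20.5% in DTR. Eif2ak4, or GCN2, which senses uncharged tRNA, fell from 28.6 ± 2.8 to 20.2 ± 3.0 CPM in control (LFC -0.50 ± 0.12, limma adjusted p = 0.0026) and from 30.8 ± 3.0 to 23.4 ± 2.8 CPM in DTR (LFC -0.43 ± 0.12, limma adjusted p = 0.0080). Eif2ak1, or HRI, the heme-regulated kinase, fell from 81.0 ± 7.4 to 63.2 ± 2.3 CPM in control (LFC -0.33 ± 0.09, limma adjusted p = 0.0068) and also in DTR (LFC -0.36 ± 0.09, limma adjusted p = 0.0046). Eif2ak2, or PKR, the double-stranded RNA sensor, and Eif2ak3, or PERK, the kinase of the endoplasmic reticulum, had LFCs between -0.18 and 0.13 and did not pass. Per kilobase in control input, Eif2ak1 was highest (14.3 ± 1.3 CPM per kb), then Eif2ak3 (7.74 ± 0.72), with Eif2ak2 (3.90 ± 0.40) and Eif2ak4 (3.83 ± 0.37) within their spread of each other.

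Among the 14 eIF3 genes, whose products form the scaffold that holds the scanning complex together, 6 fell and none rose in control IP. In DTR IP 4 fell and 1, Eif3a, rose. The share called was 42.9% in control and 35.7% in DTR, beside 39.9% and 39.2% of all genes. Of all genes, 20.7% and 20.5% were called lower. Eif3e was at 114, 121, 123 and 117 CPM in control input and 88.1, 72.6, 83.1 and 64.3 CPM in control IP (LFC -0.61 ± 0.14, limma adjusted p = 0.0016), with no overlap between the groups. The fall in DTR was of like size (LFC -0.65 ± 0.14, limma adjusted p = 0.0011), from 165 ± 33 to 103 ± 15 CPM. Eif3b, which anchors eIF3 near the mRNA entry of the ribosome, fell from 278 ± 19 to 185 ± 19 CPM in control (LFC -0.53 ± 0.14, limma adjusted p = 0.0055), and Eif3f and Eif3l also fell in both treatments, whereas Eif3c and Eif3h did so in control only. Some of these calls were near the limit and were lost when any of several single libraries was left out. Eif3c was lost without control input 3 or control IP 1, and Eif3h without control input 2, control input 3, control IP 1 or control IP 2. Eif3l was lost in control without control input 3 or any of control IP 1, control IP 2 and control IP 3, and Eif3f in DTR without DTR input 2, DTR input 3 or DTR IP 1 (limma adjusted p between 0.052 and 0.075). The median LFC of the 14 genes was -0.18 in both treatments. Eif3j1 and Eif3j2 are near-identical copies, so their separate values are uncertain.

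In the group of eIF4F, its helicases and cap-binding proteins, 5 of 11 genes fell and 1 rose in each treatment. Of all genes, 20.7% fell and 19.3% rose in control IP, and 20.5% fell and 18.6% rose in DTR IP. Eif4g1, the main scaffold of eIF4F, was at 221, 209, 238 and 197 CPM in control input and 115, 137, 109 and 131 CPM in control IP. DTR libraries gave 251, 234.5, 209 and 321 CPM in input and 165, 155, 124 and 161 CPM in IP. No IP library reached the level of an input library, with an LFC of -0.76 ± 0.13 in control (limma adjusted p = 0.00012), or 0.589 of the input level. In DTR it was -0.69 ± 0.13 (limma adjusted p = 0.00037), or 0.620 of the input level. Its paralogs Eif4g3 (LFC -0.55 ± 0.11, limma adjusted p = 0.00043) and Eif4g2 (LFC -0.55 ± 0.17, limma adjusted p = 0.016) fell too in control IP. Eif4g2 dropped out of the calls without control input 1 (limma adjusted p = 0.064) and without control IP 4 (limma adjusted p = 0.062). The DTR calls of Eif4g2 (LFC -0.49 ± 0.17, limma adjusted p = 0.030) and Eif4g3 (LFC -0.28 ± 0.11, limma adjusted p = 0.044) were weaker. The first was lost without DTR input 1, DTR input 2 or DTR IP 4, and the second without any of 11 libraries, among them all 4 control input libraries.

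Of the cap-binding proteins, 1 rose in both treatments. Eif4e2, also named 4EHP, which binds the cap without eIF4G and acts as a repressor on selected mRNAs, rose from 123 ± 8.5 to 175 ± 11 CPM in control (LFC 0.54 ± 0.09, limma adjusted p = 8.3e-05). In DTR it rose from 135 ± 9.9 to 182 ± 18 CPM (LFC 0.47 ± 0.09, limma adjusted p = 0.00034). Eif4e was at 210 ± 20 and 180 ± 17 CPM in control (LFC -0.18 ± 0.13, limma adjusted p = 0.28). It fell in DTR IP from 348 ± 62 to 226 ± 33 CPM (LFC -0.52 ± 0.13, limma adjusted p = 0.0030). That contrast between treatments was not itself past the test (interaction LFC -0.35 ± 0.18, limma adjusted p = 1.0). Eif4a1 fell in DTR IP only (LFC -0.32 ± 0.12, limma adjusted p = 0.041), a call lost without DTR input 1, DTR input 3, DTR input 4, DTR IP 1, DTR IP 2, DTR IP 3, control input 2 or control IP 1 (limma adjusted p between 0.051 and 0.12). Eif4a2 had LFCs of 0.34 ± 0.17 and 0.27 ± 0.17 without passing. With the pool number as a block, Eif4a2 passed in control (limma adjusted p = 0.039).

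Of the 3 tested genes for inhibitors and the transporter of eIF4E, 1 rose in control IP, and 2 rose and 1 fell in DTR IP. Eif4ebp2, the 4E-BP best known from the brain, was at 10.96, 11.8, 11.1 and 12.96 CPM in control input and 30.8, 33.1, 29.4 and 27.9 CPM in control IP. The DTR libraries gave 12.8, 11.3, 12.3 and 10.02 CPM in input and 24.5, 31.9, 28.99 and 23.3 CPM in IP. All 8 IP libraries were above all 8 input libraries (LFC 1.33 ± 0.13, limma adjusted p = 2.3e-07 in control, and 1.18 ± 0.13, limma adjusted p = 1.3e-06 in DTR). Eif4ebp1 was at 20.4 ± 0.53 and 23.2 ± 0.41 CPM in control (LFC 0.17 ± 0.12, limma adjusted p = 0.29). It rose in DTR IP from 20.4 ± 1.4 to 27.1 ± 4.9 CPM (LFC 0.35 ± 0.12, limma adjusted p = 0.030), which was lost without DTR input 1, DTR input 3, DTR IP 3 or DTR IP 4 (limma adjusted p between 0.066 and 0.11). Eif4ebp3 had at most 6 reads in any library. Eif4enif1, which carries eIF4E into the nucleus, fell in DTR IP (LFC -0.36 ± 0.11, limma adjusted p = 0.018), which was lost without DTR input 2, DTR IP 3 or DTR IP 4, and overlaps Drg1 on the other strand.

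**Figure D2:**
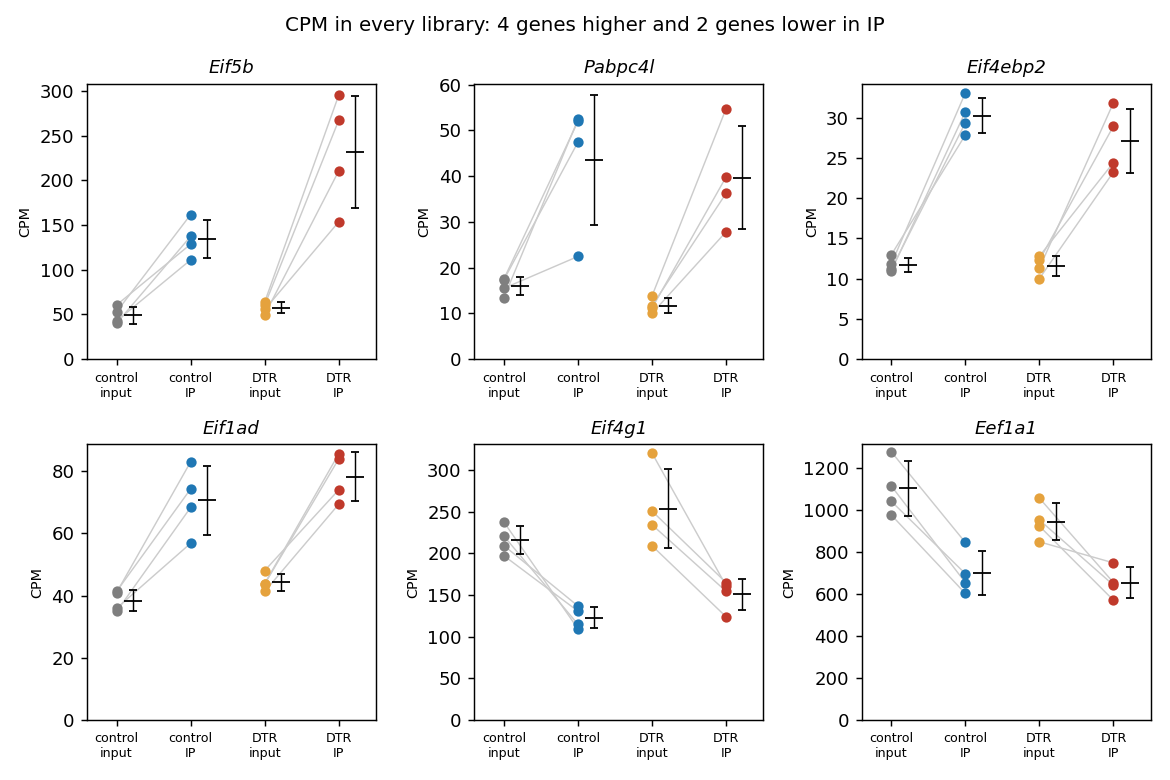
CPM in every library for Eif5b, Pabpc4l, Eif4ebp2 and Eif1ad, which were higher in IP, and for Eif4g1 and Eef1a1, which were lower; points are libraries, grey lines join input and IP of 1 pool, and the bar beside each group is the mean ± SD. In all 6 genes every line runs the same way in the 8 pools.

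Pabpc4l was the poly(A)-binding protein gene that rose in IP, from 17.4, 17.5, 13.4 and 15.5 CPM in control input to 47.4, 52.0, 52.4 and 22.4 CPM in control IP. In DTR it rose from 11.2, 11.7, 13.8 and 9.99 CPM in input to 39.8, 36.2, 54.8 and 27.8 CPM in IP. Control IP 4 lay well below the other 3 control IP libraries but still above every control input library. The LFC was 1.35 ± 0.22 in control (limma adjusted p = 8.9e-05) and 1.67 ± 0.22 in DTR (limma adjusted p = 1.1e-05). Pabpc1 (172 ± 14 and 146 ± 12 CPM in control, LFC -0.20 ± 0.10, limma adjusted p = 0.14) and Pabpc4 (17.3 ± 2.6 and 19.8 ± 3.9 CPM, LFC 0.19 ± 0.16, limma adjusted p = 0.40) did not pass. Pabpc4l spans chromosome 3 from 46442197 to 46448219 on the minus strand.

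Of the 6 genes grouped under eEF1 by their symbol (Eef1a1, Eef1a2, Eef1b2, Eef1d, Eef1e1 and Eef1g), Eef1a1 fell in both treatments and Eef1a2 in control. Eef1a1 was at 1043, 1116, 1278 and 977 CPM in control input and 697, 655, 846 and 603 CPM in control IP (LFC -0.55 ± 0.12, limma adjusted p = 0.0015), without overlap. The DTR groups did not overlap either (LFC -0.37 ± 0.12, limma adjusted p = 0.025), although this call was lost without DTR input 2, DTR input 3 or DTR IP 1 (limma adjusted p between 0.058 and 0.079). The exchange factor subunits Eef1b2, Eef1d and Eef1g had LFCs between -0.31 and 0.03 and did not pass in either treatment. Eef1a1 has many processed copies in the genome, and how reads matching several places were counted was not stated.

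Eef1a2, which replaces eEF1A1 in mature neurons and muscle, varied widely between pools. It was at 14.3, 11.5, 3.48 and 2.28 CPM in control input and 3.05, 3.06, 0.382 and 0.327 CPM in control IP. In DTR it was at 11.8, 5.62, 3.19 and 0.670 CPM in input and 3.05, 1.57, 0.497 and 0.263 CPM in IP. In each of the 8 pools the IP library was below its own input, although the groups overlapped. The fit without pools gave an LFC of -1.87 ± 0.69 in control (limma adjusted p = 0.037) and -1.51 ± 0.69 in DTR (limma adjusted p = 0.091), and with the pool number as a block the adjusted p from limma was 3.1e-06 and 2.8e-05. Without the block, the control call was lost without control input 1, control input 2, control IP 3 or control IP 4 (limma adjusted p between 0.10 and 0.12), with edgeR (adjusted p = 0.054), with DESeq2 (adjusted p = 0.051) and with no filter on low values (limma adjusted p = 0.11). Nefl, a neurofilament gene of neurons, moved over the same pools, at 273, 244, 66.1 and 56.2 CPM in control input and 228, 131, 68.8 and 23.1 CPM in DTR input. Of the 6 neuron markers, 3 were lower and 1, Isl1, was higher in control IP, with summed levels between 409 and 867 CPM in control input and between 882 and 1320 CPM in control IP. The part of neuronal RNA in the Eef1a2 values was not tested.

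Members known as TOP mRNAs were counted together with Eef2, since their translation is regulated as a set. None of these 10 genes rose and 6 fell in control IP (Eef1a1, Eif3e, Eif3f, Eif3h, Eif4b and Eef2), with a median LFC of -0.32, beside 20.7% of all genes called lower. In DTR IP 3 fell, with a median LFC of -0.18, beside 20.5% of all genes. The control call of Eif4b was lost without control input 2, control input 3, control IP 1 or control IP 4 (limma adjusted p between 0.058 and 0.082) and with edgeR (adjusted p = 0.065). The medians over all tested genes were -0.0012 and -0.03. Of the members lower in control IP, 16 had a start-site window and 7 of these held a pyrimidine match on the transcribed strand (Eef1a1, Eif2ak1, Eif2ak4, Eif2s3x, Eif3f, Eif3l and Eif4b), or 43.8%, while of the 6 higher members 1 did (Eif1ad, 16.7%), beside 17.7% of all genes. Counted on either strand, the shares were 43.8% of the lower and 50% of the higher members, beside 33.3% of all genes.

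The comparison after loss of Lgr5+ cells asked which factors changed in the ribosome-bound RNA of the surviving GLAST-Cre+ cells and in the cochlea around them. In IP, 6 of the 63 factors differed between DTR and control (9.52%, beside 15.7% of all genes), all of them higher (background 8.44% higher and 7.3% lower), and 46 of 63 had a positive LFC, with a median of 0.16 against -0.0043 over all genes. In input, 8 factors differed (12.7%, beside 12.4%), again all higher (background 7.17% higher and 5.21% lower), with a median of 0.09 against -0.02. The 6 called in IP were Eif3a, Pabpc1l, Eif5b, Eif2s2, Eif4b and Eif3c, and the 8 called in input were Pabpc1l, Eif4e, Eif1a, Eif3a, Eif3e, Eif2ak3, Eif2s2 and Eif3g. Among these, Pabpc1l was tested only because it was high in the DTR groups. A stricter call, as above, left 2 in IP, Eif3a and Pabpc1l (background 9.03%, with 4.65% higher and 4.38% lower), and 2 in input, Pabpc1l and Eif4e (background 8.27%, with 4.76% higher and 3.51% lower). With the replicate number as a block, 13 factors passed in IP (20.6%, beside 22.3% of all genes), 12 higher and 1, Eif4a1, lower (11.8% and 10.4% of all genes). Without DTR IP 4 the count was 10. With library-median centring, edgeR or DESeq2, the split in IP was 6 higher and 1 lower. The median LFC of the factors in IP was smaller in these fits, at 0.090 with the centring and 0.056 with edgeR and with DESeq2. Over all genes the medians were 0.0098, -0.013 and -0.011 in the same order. The input count fell to 2 without DTR input 2 or DTR input 3, to 3 without control input 1, control input 2, control input 4 or DTR input 1, and to 5 without control input 3.

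Eif3a, the largest eIF3 subunit, was at 128, 158, 124 and 115 CPM in control IP and 320, 218, 302 and 209 CPM in DTR IP. It was at 132, 139, 149 and 137 CPM in control input and 203, 216, 179 and 168 CPM in DTR input. Every DTR library stood above every control library of its kind, with an LFC of 1.02 ± 0.13 in IP (2.03-fold, limma adjusted p = 2.4e-05) and 0.45 ± 0.13 in input (limma adjusted p = 0.034). The IP call stood in every alternative fit and without any single library, while the input call was lost without control input 1, control input 2, control input 4, DTR input 1, DTR input 2 or DTR input 3 (limma adjusted p between 0.051 and 0.11). In DTR libraries Eif3a was also higher in IP than in input (LFC 0.51 ± 0.13, limma adjusted p = 0.0056). The control value was near 0 (LFC -0.07 ± 0.13, limma adjusted p = 0.74). The difference between these changes was 0.57 ± 0.19 (limma adjusted p = 0.63, unadjusted p = 0.0072 in the same model). Eif3a spans chromosome 19 from 60761117 to 60790658 on the minus strand and hosts Snora19.

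Eif5b rose after damage in IP from 135 ± 21 to 232 ± 63 CPM (LFC 0.79 ± 0.18, limma adjusted p = 0.0052), although DTR IP 2 at 154 CPM lay below control IP 2 at 162 CPM. In input it was at 49.0 ± 9.4 and 57.4 ± 6.2 CPM (LFC 0.22 ± 0.18, limma adjusted p = 0.53). The difference between IP and input was 0.57 ± 0.26 (limma adjusted p = 0.94). No factor passed that interaction test in limma, edgeR or DESeq2 (0.0118% of all genes did in limma), with 2 members, Eif3a and Eif5b, at an unadjusted p under 0.05 in limma (background 5.12%), 2 members in edgeR and 3 in DESeq2.

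Pabpc1l, known mainly from oocytes, passed the limit of 0.5 CPM through the DTR groups alone, so a rise in DTR was part of its being tested and its calls are a description. It was at 0.310, 0.704, 0.532 and 0.699 CPM in control input and 3.75, 6.32, 2.27 and 4.45 CPM in DTR input. In IP it was at 0.419, 0.262, 0.617 and 0.490 CPM in control and 3.82, 4.20, 1.09 and 2.04 CPM in DTR. These levels rest on 9 to 27 reads in the control libraries and 33 to 207 reads in the DTR libraries, and the groups did not overlap. The LFC was 1.94 ± 0.31 in input (limma adjusted p = 0.00028) and 1.53 ± 0.31 in IP (limma adjusted p = 0.0022) on the log2(CPM + 0.5) scale. That scale understates changes at such levels, and edgeR on the recovered reads gave 2.89 and 2.56. Pabpc1l spans chromosome 2 from 164025450 to 164050538 on the plus strand.

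**Figure D3:**
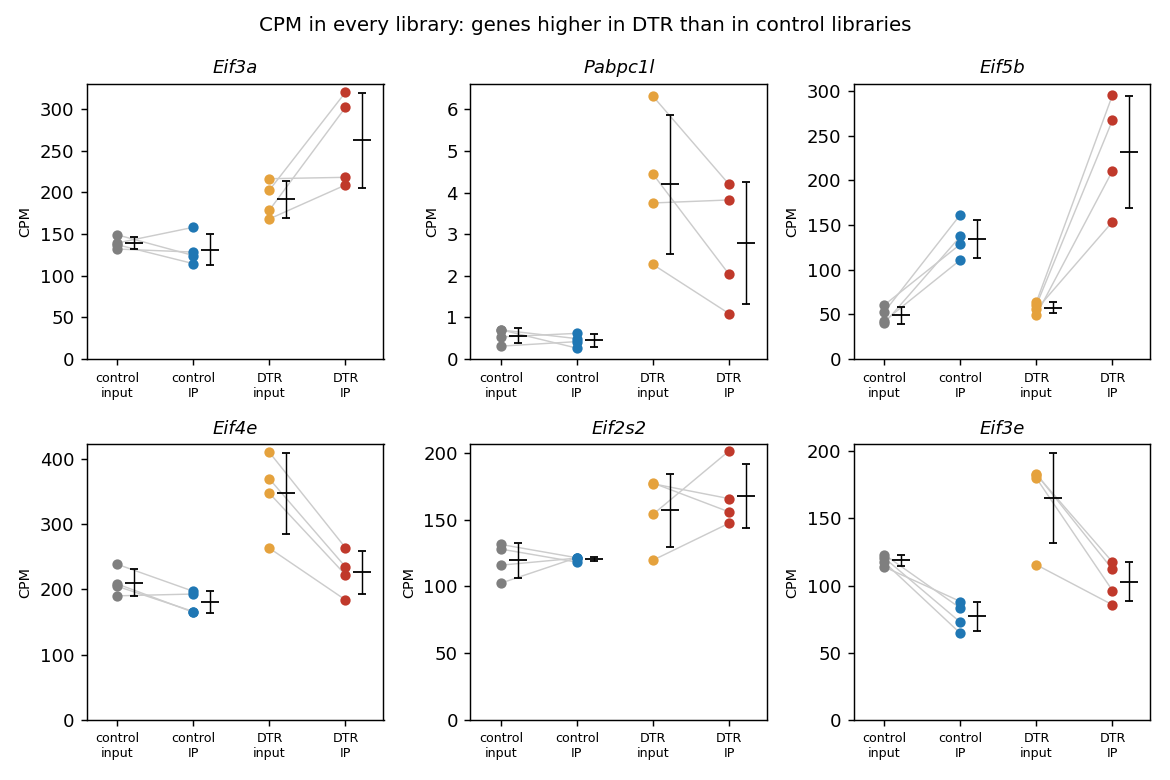
CPM in every library for Eif3a, Pabpc1l, Eif5b, Eif4e, Eif2s2 and Eif3e, with points for libraries, grey lines for the pools and the mean ± SD beside each group. Eif3a and Pabpc1l were higher in all DTR than in all control libraries of the same kind, and in Eif4e and Eif3e DTR input 4 was the lowest DTR input library.

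Eif4e, the cap-binding subunit of eIF4F, was at 239, 205, 190 and 208 CPM in control input and 410, 370, 348 and 263 CPM in DTR input, without overlap (LFC 0.71 ± 0.13, limma adjusted p = 0.00070). Its values in IP, 180 ± 17 CPM in control and 226 ± 33 CPM in DTR, did not pass (LFC 0.36 ± 0.13, limma adjusted p = 0.061), but passed with the block (limma adjusted p = 0.013). Eif1a rose in input from 94.9 ± 12 to 137 ± 26 CPM (LFC 0.51 ± 0.15, limma adjusted p = 0.031). Eif3e rose from 119 ± 4.0 to 165 ± 33 CPM (LFC 0.44 ± 0.14, limma adjusted p = 0.041) and Eif2ak3 from 46.6 ± 4.3 to 62.6 ± 11 CPM (LFC 0.39 ± 0.12, limma adjusted p = 0.045). Of these last calls, Eif1a was lost without 5 single libraries (control input 3, control input 4, DTR input 1, DTR input 2 or DTR input 3), Eif3e without 7 (every control input library, DTR input 1, DTR input 2 or DTR input 3) and Eif2ak3 without 9 of the 16. Eif3g, the last of the 8, rose from 115 ± 6.7 to 145 ± 11 CPM (LFC 0.34 ± 0.10, limma adjusted p = 0.037) and was lost without 7 (all but control input 3 of the input libraries). The Eif3g call was also lost with edgeR (adjusted p = 0.052), DESeq2 (adjusted p = 0.053), library-median centring (limma adjusted p = 0.063) and no filter (limma adjusted p = 0.055). In 5 of the 8 factors called in input, DTR input 4 was the lowest of the DTR input libraries (Eif2s2, Eif3a, Eif3e, Eif4e and Eif1a).

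The other IP calls were smaller. Eif2s2 rose from 121 ± 1.6 to 168 ± 24 CPM in IP (LFC 0.48 ± 0.12, limma adjusted p = 0.011), and in input from 120 ± 13 to 157 ± 27 CPM (LFC 0.38 ± 0.12, limma adjusted p = 0.049). The input call was lost in 19 of 27 alternative fits, edgeR included (adjusted p = 0.061), and the IP call in none. Eif4b, which stimulates the eIF4A helicase, rose in IP from 83.6 ± 7.8 to 115 ± 16 CPM (LFC 0.44 ± 0.11, limma adjusted p = 0.011) and Eif3c from 127 ± 9.7 to 167 ± 12 CPM (LFC 0.41 ± 0.10, limma adjusted p = 0.0059). With the block, Eif1a, Eif2s1, Eif3e, Eif3g, Eif4e and Eif4g1 were added to the higher IP calls with LFCs from 0.30 to 0.41. The role groups without any call after damage in either RNA were eIF2B, the 4E-BPs with Eif4enif1, eIF5A with eIF6, eEF1, and the eEF1A methyltransferase gene. With the block, Eif2b2, Eif4b and Eif6 (higher) and Eef1a2 (lower) were added to the input calls. Eif5a2, the paralog of Eif5a, was at 29.7 ± 14 CPM in control input and 36.1 ± 14 CPM in control IP, and its LFCs of 0.31 ± 0.30 in control and 0.39 ± 0.30 in DTR did not pass between input and IP. Eif5a, at 592 ± 18 and 488 ± 79 CPM, did not pass either (LFC -0.19 ± 0.11 and -0.23 ± 0.11). Eef1akmt1, which methylates eEF1A, was at 36.3 ± 0.99 CPM in control input and 39.6 ± 6.7 CPM in control IP (LFC 0.09 ± 0.17, limma adjusted p = 0.72).

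The gamma subunit of eIF2 is made from an X-linked gene, Eif2s3x, and a Y-linked copy, Eif2s3y, and their values depended on the pool. Eif2s3y was at 7.10, 0.0282, 44.7 and 38.4 CPM in control input and 67.5, 65.0, 57.7 and 0.0305 CPM in DTR input. In IP it was at 19.0, 0, 52.0 and 23.8 CPM in control and 101, 68.8, 81.2 and 0.132 CPM in DTR. Control pool 2 and DTR pool 4 were thus at 4 reads or fewer. Ddx3y, another Y-linked gene, was low in the same pools (0 and 0.183 CPM in input), where Xist, transcribed from the inactive X, was highest (39.4 and 26.4 CPM in input). Eif2s3x was highest in the pools with little Eif2s3y, at 136, 144, 85.0 and 95.3 CPM in control input and 87.7, 89.0, 85.5 and 117 CPM in DTR input.

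Eif2s3x fell in IP against its own input in each of the 8 pools (LFC -0.69 ± 0.21, limma adjusted p = 0.016 in control, and -0.65 ± 0.21, limma adjusted p = 0.022 in DTR), and after damage it did not pass in either RNA. The control call was lost without control input 1, control input 2, control IP 3 or control IP 4 (limma adjusted p between 0.053 and 0.062), and the DTR call without DTR input 4, DTR IP 1 or DTR IP 3 (between 0.053 and 0.076). Summed over the X and Y copies, the levels were 138 ± 7.0 CPM in control input, 95.3 ± 15 CPM in control IP, 142 ± 18 CPM in DTR input and 124 ± 32 CPM in DTR IP. The sum was lower in IP than in input in all 4 control pools and in 3 of 4 DTR pools, the exception being DTR pool 1 (155 and 159 CPM). The copies are near-identical, and the handling of reads that match both was not stated. Eif2s3y had 1 read each in control input 2 and DTR input 4, where Eif2s3x was at 144 and 117 CPM. Hardly any reads of the X copy were thus counted under the Y copy there. Whether reads of the Y copy were counted under the X copy was not tested. Pools almost without Y-linked RNA were 1 of 4 in each treatment, but control pool 1 was low in it too. Its input had Ddx3y at 17.0 CPM, against 83.0 and 79.7 CPM in control pools 3 and 4, and Xist at 10.7 CPM. Low Y-linked RNA was thus more common among control than DTR pools, and the part of sex in the other values was not tested.

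**Figure D4:**
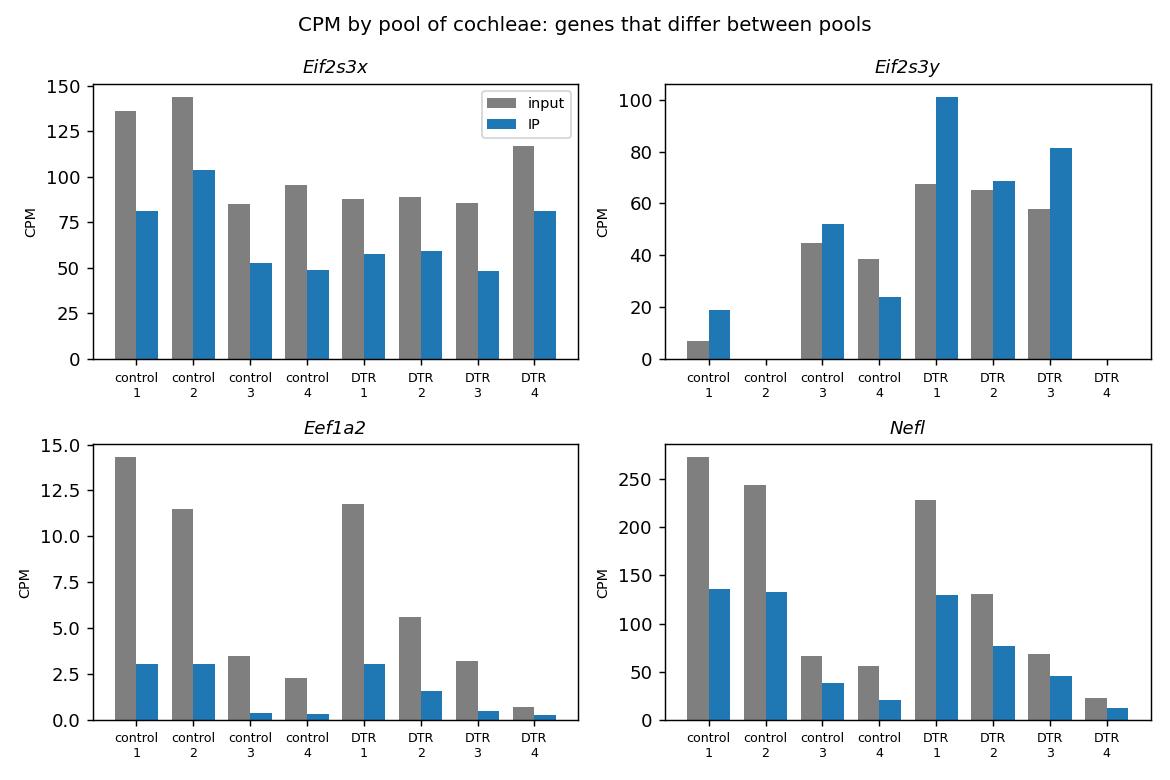
CPM by pool (4 control and 4 DTR) in input (grey bars) and IP (blue bars) for Eif2s3x, Eif2s3y, Eef1a2 and the neurofilament gene Nefl. Eif2s3y is near 0 in control pool 2 and DTR pool 4, and Eef1a2 and Nefl are both lowest in pool 4 of each treatment.

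Genes of the same pathway outside the chosen symbols were counted from lists of known components. Beside these counts, 19.3% of all tested genes were called higher and 20.7% lower in control IP against input. In DTR IP against input the shares were 18.6% and 20.5%. After damage they were 8.44% and 7.3% in IP, and 7.17% and 5.21% in input. Of 6 genes of eEF2 and termination, 3 fell in control IP and 2 in DTR IP. They included Abce1, which splits ribosomes after termination (125 and 61.1 CPM in control, LFC -1.01, limma adjusted p = 7.6e-05), and Gspt1, the release factor eRF3 (LFC -0.80, limma adjusted p = 7.9e-05). Among 12 regulators around mTORC1, 4 rose and 3 fell in control IP and 3 rose and 3 fell in DTR IP. Mknk2, a kinase of eIF4E, rose from 106 to 286 CPM in control (LFC 1.45, limma adjusted p = 5e-08). Larp1, which binds TOP mRNAs, rose as well (LFC 0.61, limma adjusted p = 0.00046). In contrast, Mtor (LFC -0.99, limma adjusted p = 0.00011) and Tsc2 (LFC -1.23, limma adjusted p = 0.00011) fell. Of 6 partners of the poly(A)-binding protein, 4 rose and 1 fell in control IP, with Tob2 at an LFC of 1.13 (limma adjusted p = 1.4e-06). Of 10 helpers of initiation and of eIF5A hypusination, the helicase gene Dhx29 was the one lower in control IP (LFC -1.03, limma adjusted p = 1e-06), and none rose there. After damage, none of the 12 mTORC1 genes passed in IP, and 1, Tsc1, rose in input (LFC 0.91, limma adjusted p = 0.0015). Of the 6 genes of eEF2 and termination, 1 rose in IP and 2 rose in input, among them Abce1 (LFC 0.60, limma adjusted p = 0.019). Of the 6 partners of the poly(A)-binding protein, none passed in IP, and 1 rose and 1, Paip2b, fell in input (LFC -0.75, limma adjusted p = 0.0032). None of the 10 helpers passed after damage.

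Cell type markers moved with both comparisons. Of all tested genes, 19.3% were called higher and 20.7% lower in control IP against input. After damage, 8.44% were higher and 7.3% lower in IP, and 7.17% higher and 5.21% lower in input. Summed hair cell markers ranged from 386 to 533 CPM in control input and from 85.2 to 157 CPM in control IP (7 of 8 lower, 1 higher). Schwann cell markers went from between 2453 and 4385 to between 771 and 1201 CPM (5 of 6 lower). Macrophage markers ranged from 92.0 to 98.6 and from 14.1 to 21.6 CPM (6 of 6 lower), and endothelial markers from 101 to 125 and from 28.8 to 45.2 CPM (5 of 5 lower). Supporting and GER cell markers were at 5422 to 8880 CPM in control input and at 4454 to 4617 CPM in control IP, with 4 of 8 lower and 1 higher. Slc1a3, the gene of GLAST itself, was at 281 ± 14 CPM in control input and 236 ± 22 CPM in control IP (LFC -0.20 ± 0.09, limma adjusted p = 0.10). The listed supporting and GER cell markers were thus present in every library but were not enriched as a set by the IP. Their list is not confined to GLAST-Cre+ cells, since it holds Prox1, which the study assigns to supporting cells of the lateral compartment. The study reported other genes, among them Igf2 and Igf2bp1, as enriched in control IP and located both to the GER by in situ hybridization. After damage the supporting and GER cell markers ranged from 2223 to 3154 CPM in DTR IP (4 of 8 lower than in control IP). Otic mesenchyme markers went from between 2570 and 3213 CPM in control IP to between 4027 and 4480 CPM in DTR IP (5 of 6 higher) and macrophage markers reached between 32.8 and 49.0 CPM (4 of 6 higher). In input after damage, supporting and GER cell markers ranged from 4068 to 4804 CPM (5 of 8 lower, 1 higher), Schwann cell markers from 1219 to 1967 CPM (5 of 6 lower) and macrophage markers from 123 to 202 CPM (4 of 6 higher). Otic mesenchyme markers ranged there from 4070 to 4821 CPM (2 of 6 higher). The part of these shifts in the translation factor values was not tested.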

How the data were processed

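RNA-seq of 4 input and 4 IP libraries each from control and DTR cochleae was analysed. The values are CPM as deposited by the authors, who amplified RNA with SMART-Seq v4, which does not mark strand, and aligned reads to GRCm38. The study's methods name HISAT2 and HTSeq, the submitters' processing notes TopHat, and the handling of reads with several matches was not given in the sources used here. Whole reads were recovered from the CPM for every value within 0.02 reads, and 3 reads corresponded to between 0.0715 and 0.107 CPM. Of 50316 listed genes, 2587 had no value. The CPM of all 47729 genes with values were quantile normalized. The 16994 genes that reached 0.5 CPM in each replicate of some group were then kept. For these, log2(CPM + 0.5) was fitted over all 4 groups with limma 3.58.1 (trended variance) in R 4.3.3. The no-overlap part of the stricter call used the quantile normalized values. Log2 fold changes come from that scale, CPM values and overlaps described beside them from the unnormalized CPM. P-values were adjusted over all tested genes by the Benjamini-Hochberg method, with 0.05 as the limit.

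Replicate numbers come from the titles, and input and IP of a number share a homogenate. Deviations from the group means correlated across genes between same-numbered libraries in every pair of all 4 comparisons (lowest r 0.288, mean between 0.357 and 0.407). Because of this correlation, a fit with the number as a block was added. The averages for different numbers, -0.119 to -0.135, follow largely from the centring on group means and are no separate baseline. Other alternatives were unnormalized or median-centred CPM, pseudocounts of 0.1 and 1, no filter, a filter of 2 CPM, the compared groups alone, edgeR 4.0.16 and DESeq2 1.42.0 on the recovered reads, a length correction and leaving out each library. The model was tested on simulated data, in which false calls exceeded the limit in DTR IP against control IP and were close to or below it in the other group comparisons. The simulated libraries were independent, with the same dispersion for all genes and no shared pool differences. They therefore do not test the fit under the correlation between same-numbered libraries. The conditional quantile normalization of the study was not applied. Members, role lists and marker lists were chosen with earlier results of these data known. Values were given for the 5 members with the largest called change per direction and comparison, the highest member of each role, paralogs and, chosen after their values were seen, other called members. Positions follow GENCODE M21, and 34 of the 70 members overlap another annotated gene.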

Additional observations from a re-analysis of the deposited data

Results flagged for a closer look

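In 11 of 156 groups of 4 libraries, 1 library stood apart from the other 3 by more than Dixon's 95% limit, while chance alone gives about 1 in 20. Among these are groups in which the other 3 had 0 reads, where any read passes the limit, and groups of X-linked and Y-linked genes. The count is therefore no measure of an excess over chance. Control IP 4 had Pabpc4l at 22.4 CPM, with the others between 47.4 and 52.4 CPM. DTR input 4 had Eif3e at 115 CPM (others 180 to 183 CPM), Eif2s3x at 117 CPM (others 85.5 to 89.0 CPM) and Eif2s3y at 0.0305 CPM (others 57.7 to 67.5 CPM). DTR IP 4 had Eif2ak4 at 19.2 CPM (others 24.5 to 25.2 CPM), and 1 control input library had Eif2ak2 at 22.95 CPM (others 18.6 to 19.3 CPM). Eif2s2 in control IP had its lowest library at 118 CPM beside others between 121.3 and 121.7 CPM, a narrow gap. The remaining cases were single libraries with 1 or 2 reads where the others had 0, for Eif2c5 (0.0238 CPM in control input, 0.0305 CPM in DTR input and 0.0643 CPM in DTR IP) and Eif4ebp3 (0.0582 CPM in control IP).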

How the results depend on the processing

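No value reversed its direction past the limit under any alternative. Of the translation factors, 13 differed between DTR IP and control IP with the replicate block (12 higher and 1 lower) and 13 with the block and length correction (all higher), against 6 without a block. Between DTR input and control input, 5 differed with centring on the library median and 2 with no filter on low values, against 8. Leaving out 1 library at a time gave between 20 and 28 for control IP against input, between 19 and 26 for DTR IP against input, between 6 and 10 for DTR IP against control IP, between 2 and 10 for DTR input against control input and 0 throughout for the interaction. The input count was 10 without DTR input 4. Counts under the other fits stayed within 1.5 times. With the block, 29 and 32 factors differed between IP and input in control and DTR (46% and 50.8%, beside 48.8% and 48.2% of all genes), and 12 between the inputs (19%, beside 17.1%). Beyond the blocked values given above, the calls added by the block were Eef1b2, Eif2b3 and Eif3j2 in control IP against input and Pabpc1l, Eef1e1, Eif3h, Eif4b, Eif4h and Eif1a in DTR, and the block ended no call. With the length correction added to the block, the control calls of Eif2a and Eif4h and the DTR call of Eif4ebp1 were lost. Further calls lost with no filter were Eif4g2 and Eif4h in control IP against input, Eef1a1, Eif2s3x, Eif4a1, Eif4g2 and Eif4g3 in DTR IP against input, and Eif1a, Eif2ak3, Eif2s2, Eif3a and Eif3e between the inputs. The input call of Eif2s2 was also lost with edgeR, library-median centring and a pseudocount of 0.1, and that of Eif3e with the centring. Without quantile normalization, the input call of Eif2s2 and the DTR call of Eif4g3 were lost. With the compared groups alone, the calls of Eif1ax, Eif2b5, Eif4a1, Eif4ebp1 and Eif4g3 in DTR IP against input and of Eif2ak3, Eif2s2 and Eif3e between the inputs were lost. The cause of these shifts was not tested. Of the limits on depth, the 9 to 27 reads of Pabpc1l in control libraries are among the lowest behind a call.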
